A study of Mus musculus with 4 samples.

Results

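The 7 growth factor genes described here are Bmp2, Bmp4 and Bmp7 of the bone morphogenetic protein (BMP) family, Fgf1, Fgf2 and Fgf10 of the fibroblast growth factor (FGF) family, and Angpt2, which encodes angiopoietin 2. They were chosen by name among the 84 genes of a mouse PCR array for adipogenesis, as every gene of these families on the array, and not for how they behaved. The array was run on livers of male C57BL/6J mice that were 2 months old when they were assigned to the diets. The ND group received a normal calorie diet of 3.85 kcal/g (70% of the energy as carbohydrate, 20% as protein, 10% as fat), and the HFD group a high fat diet of 5.24 kcal/g (20% as carbohydrate, 20% as protein, 60% as fat). Mice of the groups ND + *mol*-miR pool and HFD + *mol*-miR pool, written ND + pool and HFD + pool from here on, ate the same diets and were given a pool of *Moringa oleifera* small RNAs by oral gavage every 2 days, and all diets lasted 5 weeks. Each group had 3 mice, but only 1 liver sample per group was deposited, and whether it came from 1 mouse or from several is not given in the sources used here. No test between groups was therefore possible, no p-value is given, and the differences below are differences between 4 samples.

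All 7 genes encode secreted proteins that act on neighbouring cells. BMPs belong to the transforming growth factor beta superfamily: they bind pairs of serine/threonine kinase receptors, which phosphorylate Smad proteins that then enter the nucleus. In the liver, BMP ligands from endothelial cells control the iron hormone hepcidin, and in mesenchymal precursors BMPs direct cells towards bone, white fat or brown fat. FGFs bind receptor tyrosine kinases with heparan sulphate and activate the MAP kinase cascade, driving growth and migration of fibroblasts, endothelium and epithelium. Angiopoietin 2 is released by endothelial cells and modulates Tie2, the receptor that keeps vessels quiescent. Several of these genes are transcribed mainly outside hepatocytes, Bmp2 and Angpt2 in endothelial cells for example. In such bulk samples, fewer cells of a type and less RNA per cell cannot be told apart.

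The regions before the start sites are shown to place the genes in the genome. RefSeq promoter entries of the mouse assembly GRCm38.p6 were found for 3 of the 7 genes, Bmp4, Fgf2 and Fgf10. The 250 bases before each start site are printed 5′ to 3′ on the gene's strand, with the GC box, the letters GGGCGG or their complement CCGCCC, in capitals. The Bmp4 window lies at chr14:46390670-46390919 on the minus strand, the Fgf2 window at chr3:37348403-37348652 on the plus strand and the Fgf10 window at chr13:118714449-118714698 on the plus strand.
Bmp4: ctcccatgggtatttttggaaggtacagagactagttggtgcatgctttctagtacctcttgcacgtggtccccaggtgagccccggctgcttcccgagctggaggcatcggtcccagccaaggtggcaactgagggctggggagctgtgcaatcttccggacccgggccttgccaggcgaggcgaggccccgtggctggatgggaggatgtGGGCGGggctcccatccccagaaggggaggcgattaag
Fgf2: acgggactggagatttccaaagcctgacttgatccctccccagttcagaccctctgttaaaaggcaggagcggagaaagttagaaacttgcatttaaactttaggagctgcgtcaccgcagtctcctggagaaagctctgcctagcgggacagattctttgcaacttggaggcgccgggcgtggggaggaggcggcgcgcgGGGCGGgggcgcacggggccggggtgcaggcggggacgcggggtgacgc
Fgf10: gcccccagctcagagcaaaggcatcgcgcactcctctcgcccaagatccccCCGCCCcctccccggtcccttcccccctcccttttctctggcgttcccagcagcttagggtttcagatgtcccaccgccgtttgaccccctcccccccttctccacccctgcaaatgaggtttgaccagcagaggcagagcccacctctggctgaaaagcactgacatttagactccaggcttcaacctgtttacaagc
Each window held 1 GC box, against 32.7% of 32851 mouse promoter windows of the same length with at least 1 on either strand. The share of G and C was 63.2% for Bmp4, 62.4% for Fgf2 and 61.2% for Fgf10, where the median of all windows was 52.4%. Fgf2 held 20 CpG pairs, Bmp4 11 and Fgf10 8, against a median of 6. None of the 3 windows held the letters TATAAA on either strand, which 12.4% of all windows did. The E-box letters CACGTG, found in 6.02% of windows, occurred in Bmp4 only, among these 3 genes. These matches describe the letters and are not evidence of binding.

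The measured value was the threshold cycle (Ct), the PCR cycle at which the product becomes visible, so that a lower Ct means more template, by a factor of 2 for each cycle. Within a sample, each Ct was set against the average for Actb, Gapdh, Gusb, Hprt and Hsp90ab1, the 5 reference genes. This average was 21.6 for ND, 22.1 in ND + pool, 21.9 in HFD and 22.2 in HFD + pool. The difference, called the normalised Ct here, is high when a gene is scarce. Primer efficiencies are unknown, so normalised Ct values were compared between samples and not between genes. All 28 wells of the growth factor genes gave a Ct below the limit of 35, and among all 336 gene wells 2 had none. There was 1 well per gene and sample. The only repeated wells were controls: the positive PCR control wells differed by 0.927 cycles in ND (2 of 3 wells with a Ct) and by 0.106 cycles in ND + pool (3 wells). In ND + pool, 2 of 3 reverse transcription control wells had a Ct, and they differed by 0.791 cycles. The Ct of the positive control wells was 16.9 to 17.9 in ND, 18.3 to 18.4 in ND + pool, 21.2 in HFD and 22.0 in HFD + pool, with 1 of 3 wells read in each of the HFD samples. The part of this shift between plates in the results was not tested.

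A further control amplifies genomic DNA that is not transcribed, and it differed between the samples more than any growth factor gene. Its Ct was 26.8 in ND, 28.8 in ND + pool, 34.7 in HFD and 33.4 in HFD + pool. The 2 ND samples were thus closer to their DNA signal than the HFD samples were, and each result below is read beside that distance. Directions are those of the Ct columns as labelled, where the ND columns carry the abbreviation of a low-fat diet. The direction between HFD and ND found from these columns is opposite to the one that the study's text gives for most of the array, and which assignment is right was not settled here. If the names of the ND and HFD columns were exchanged, HFD vs. ND would change sign, and HFD + pool vs. HFD would take the values given below for HFD + pool vs. ND. The reverse would hold for HFD + pool vs. ND. ND + pool vs. ND would set ND + pool against the column now named HFD. All growth factor genes had a higher normalised Ct in that column than in ND + pool, so they would be higher with the pool. The differences between the pool comparisons on the 2 diets would change too.

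Against the mean of the 5 reference genes, the BMP ligands were lowest in HFD, to different extents. Bmp2, an osteogenic ligand that liver endothelium also makes, had a normalised Ct of 4.38 in ND, 5.73 in ND + pool, 9.46 in HFD and 7.64 in HFD + pool. Its level was highest in ND and lowest in HFD, and neighbours in that order were at least 1.35 cycles apart. Bmp4, which commits mesenchymal precursors to the fat lineage, had a normalised Ct of 3.24 in ND, 3.70 in ND + pool, 4.76 in HFD and 3.50 in HFD + pool. Bmp4 varied least among the BMPs, over 1.52 cycles. Its samples with the pool differed by 0.200 cycles. This was less than the 0.927 cycles between positive control wells in ND and the 0.791 between reverse transcription control wells in ND + pool. It was more than the 0.106 cycles between positive control wells in ND + pool. Bmp7, a ligand that promotes brown fat differentiation, had a normalised Ct of 4.26 in ND, 5.70 in ND + pool, 7.35 in HFD and 5.05 in HFD + pool. For Bmp4 and Bmp7, HFD + pool came next after ND, ahead of ND + pool. This order depended on the reference. ND + pool was ahead of HFD + pool for both with Hsp90ab1 alone, and for Bmp4 with Gusb alone. With Gapdh alone or the median Ct of the array genes as reference, HFD + pool was above ND for both.

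The FGF ligands held both the narrowest and the widest range of the 7 genes against the mean of the 5 reference genes. Fgf1, a broadly acting FGF induced in fat tissue by feeding through Pparg, had a normalised Ct of -0.061 in ND, 0.0358 in ND + pool, 0.802 in HFD and -0.678 in HFD + pool. Its range of 1.48 cycles was close to that of Bmp4, and with the array median as reference it was 2.05 cycles against 1.17 for Bmp4. With the 5-gene mean, Fgf1 alone had its highest level in HFD + pool; with Gapdh alone, Bmp4, Bmp7 and Angpt2 did too. Its ND samples differed by 0.0968 cycles, within the spread of the control wells. Fgf2, a mitogen of fibroblasts and endothelial cells, had a normalised Ct of 3.75 in ND, 5.22 in ND + pool, 8.67 in HFD and 6.22 in HFD + pool. It ranged over 4.92 cycles in the same order as Bmp2. Fgf10, a mesenchymal ligand that signals to epithelia and is needed for white fat to form, had a normalised Ct of 4.30 in ND, 6.02 in ND + pool, 10.9 in HFD and 8.63 in HFD + pool. Its range of 6.56 cycles was the widest of the 7, and its neighbouring samples were at least 1.72 cycles apart.

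Angpt2, the vascular member of the set, behaved like Bmp7 in size. Its normalised Ct was 3.39 in ND, 4.34 in ND + pool, 6.47 in HFD and 4.56 in HFD + pool. The samples with the pool were 0.226 cycles apart, while HFD stood 1.91 cycles below its nearest neighbour. That 0.226 was less than the 0.927 cycles between positive control wells in ND and the 0.791 between reverse transcription control wells in ND + pool. It was more than the 0.106 cycles between positive control wells in ND + pool. Ranges within 1 plate do not measure the error of a difference between plates.

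**Figure D1:**
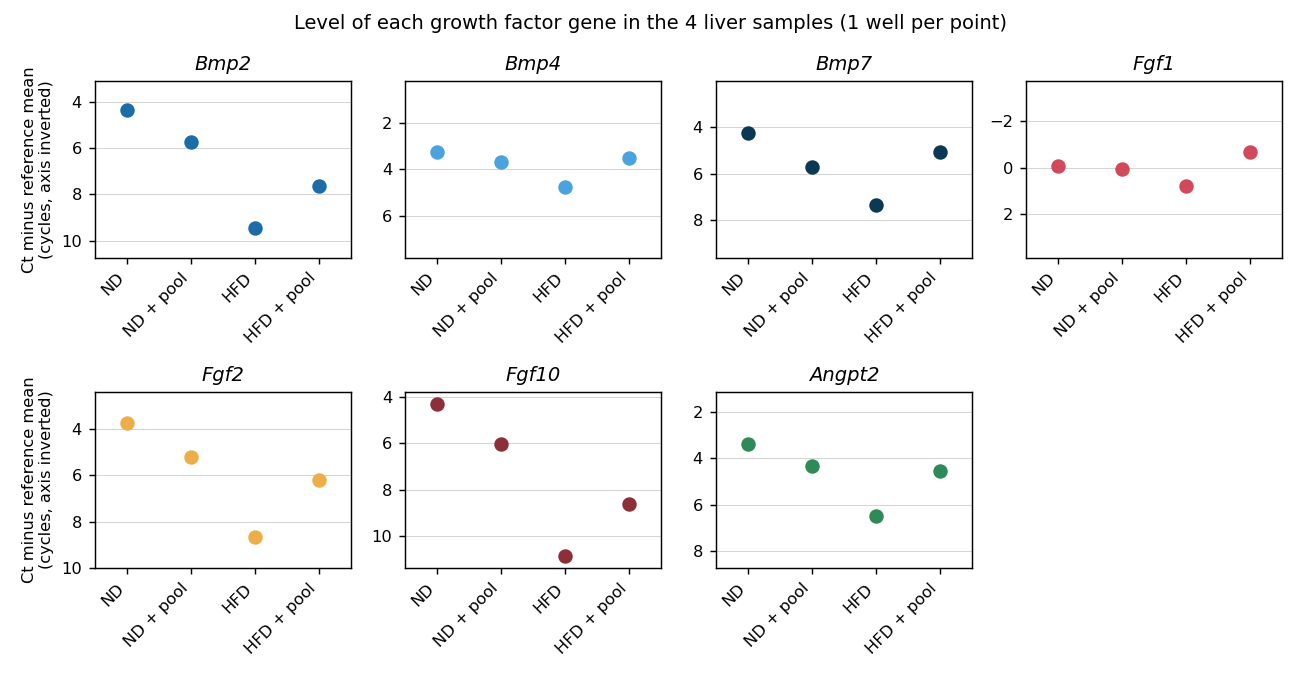
Normalised Ct (Ct minus the mean Ct of the 5 reference genes, in cycles, axis inverted so that higher points mean more transcript) of each of the 7 genes in the 4 liver samples, with 1 well per point and no error bar because there were no replicates. HFD is the lowest point in all 7 panels, and the range runs from 1.48 cycles for Fgf1 to 6.56 cycles for Fgf10.

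The first comparison, HFD vs. ND, addressed the diet without the pool. The levels of 6 of the 7 genes were below 0.5 of ND, and Fgf1, at 0.550, was not. Of all 84 array genes 72.6% were below 0.5, so most of the array was lower in HFD and the count of growth factor genes does not stand apart from it. Fgf10 was 94.6-fold lower in HFD, the fifth lowest of the 84 fold changes. Bmp2 was 33.8-fold lower and Fgf2 30.2-fold lower. Angpt2 was 8.49-fold and Bmp7 8.48-fold lower, and Bmp4 2.87-fold lower. On the log2 scale the median of the 7 fold changes was -3.09, and that of all array genes -2.53. Within each family the fold changes were spread widely, from -1.52 for Bmp4 to -5.08 for Bmp2 and from -0.86 for Fgf1 to -6.56 for Fgf10 (log2). Relative to the median Ct of the array genes, a reference that moved the array median to 0.158, Fgf10 (-3.88), Bmp2 (-2.39) and Fgf2 (-2.23) were below 0.5, Bmp4 (1.17) and Fgf1 (1.82) were above 1.5, and Bmp7 and Angpt2 (both -0.40) lay between, while 30 array genes were below and 35 above.

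These 2 ends of the list also differed in their distance to the genomic DNA control. In ND, Fgf1 appeared 5.22 cycles before that control, while Bmp2 appeared 0.783, Fgf10 0.866, Bmp7 0.899, Fgf2 1.41, Angpt2 1.78 and Bmp4 1.92 cycles before it. Thus 6 of the 7 genes lay within 3 cycles of the DNA signal in ND, as did 63 of the 84 array genes. The distances in ND + pool ran from 0.652 cycles for Fgf10 to 6.63 for Fgf1, and again 6 of 7 were within 3 cycles. In HFD the distance was 1.86 cycles for Fgf10, 3.26 for Bmp2, 4.05 for Fgf2, 5.37 for Bmp7, 6.24 for Angpt2, 7.96 for Bmp4 and 11.9 for Fgf1. Only Fgf10 of the 7 was within 3 cycles there, and the same held in HFD + pool, where it was 2.52 cycles before the control and the others 3.51 to 11.8.

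Expressed as signal, the DNA control well of ND held 58.1% of the Bmp2 signal, 54.9% of Fgf10, 53.6% of Bmp7, 37.6% of Fgf2, 29.2% of Angpt2, 26.4% of Bmp4 and 2.68% of Fgf1. In HFD the same share was 27.6% for Fgf10, 10.4% for Bmp2, 6.05% for Fgf2, 2.42% for Bmp7, 1.32% for Angpt2, 0.403% for Bmp4 and 0.0259% for Fgf1. The control itself came 7.88 cycles later in HFD than in ND, while the genes came 6.89 (Fgf10), 5.40 (Bmp2), 5.25 (Fgf2), 3.41 (Angpt2 and Bmp7), 1.85 (Bmp4) and 1.19 (Fgf1) cycles later. The DNA signal was then subtracted from each gene, the reference genes included. Of these, Gusb (24.1) and Actb (24.7) lay nearest to the DNA control in ND, at 26.8. In HFD they had 24.5 and 24.1, beside 34.7 for the control. After the subtraction, HFD vs. ND was -6.02 for Fgf10, -4.47 for Fgf2, -4.12 for Bmp2, -2.74 for Angpt2, -2.15 for Bmp7, -1.22 for Bmp4 and -0.96 for Fgf1 (log2). The same 6 genes were then below 0.5, and 56 of the 80 array genes that kept a signal. How much the DNA of a gene's own primer site adds to its well is not known from 1 control assay, and its part in these differences was not tested beyond this subtraction.

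**Figure D2:**
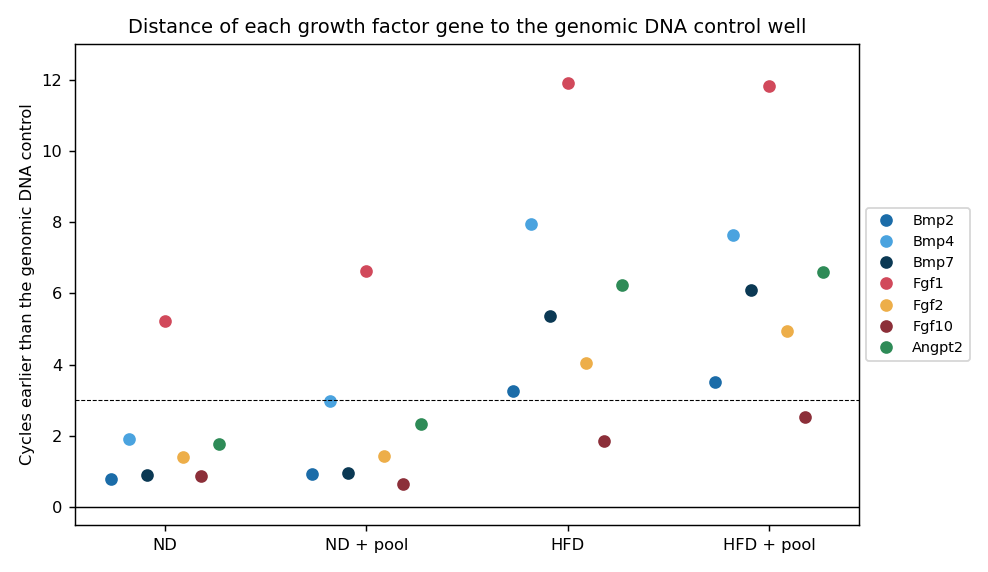
Number of cycles by which each of the 7 genes appeared before the genomic DNA control well of the same sample (y axis, cycles) in the 4 samples (x axis), with the dashed line at 3 cycles. Apart from Fgf1, the genes lie 0.652 to 2.97 cycles before the control in ND and ND + pool, and only Fgf10 lies below the line in HFD and HFD + pool.

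The raw Ct values were also spread over different widths in the samples. Without Fgf1, the genes lay between 24.9 and 26.0 cycles in ND, a band of 1.14 cycles. The band was 2.31 cycles wide in ND + pool, 6.10 cycles in HFD, from 26.7 to 32.8, and 5.13 cycles in HFD + pool. Over the whole array, 48 genes had a Ct between 25 and 27 in ND, 21 in ND + pool, 13 in HFD and 11 in HFD + pool. These bands describe the wells; as primer efficiencies are unknown, they do not rank the genes.

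The second comparison, HFD + pool vs. HFD, addressed the pool on the high fat diet. All 7 genes were above 1.5-fold, where 84.5% of the array genes were. Fgf2 was 5.47-fold higher, Bmp7 4.91-fold and Fgf10 4.69-fold. Angpt2 was 3.76-fold, Bmp2 3.53-fold, Fgf1 2.79-fold and Bmp4 2.39-fold higher. The fold changes lay closer together than in HFD vs. ND, from 1.26 for Bmp4 to 2.45 for Fgf2 (log2), with a median of 1.91 against 1.46 for the array. With the array median as reference 4 of the 7 and 31 of the 84 array genes were above 1.5. From HFD to HFD + pool the Ct of the DNA control fell by 1.27 cycles, that of Bmp4 fell by 0.963 and that of Fgf2 fell by 2.16, with the other 5 genes in between.

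The third comparison set HFD + pool against ND, the untreated mice on the normal diet. Fgf10 (-4.33), Bmp2 (-3.26), Fgf2 (-2.47) and Angpt2 (-1.17) were below 0.5 of ND on the log2 scale, 4 of 7 where 53.6% of the array genes were. Fgf1 alone was above 1.5, at 1.53-fold, and 14.3% of the array genes were above it. That value was close to the limit, and with Hsp90ab1 as the only reference it was -0.60 on the log2 scale. Angpt2 was above ND with Gapdh alone (0.38) and with the array median (0.26) and was -0.83 after DNA subtraction, and Fgf2 was -0.91 with Gapdh alone. Bmp4 (-0.26) and Bmp7 (-0.79) lay between the limits. The median was -1.17 for the growth factor genes and -1.24 for the array. HFD, ND and HFD + pool each enter 2 of these 3 comparisons, so the comparisons are not independent.

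The fourth comparison, ND + pool vs. ND, addressed the pool on the normal diet. Against the 5-gene mean all 7 values were below 0 on the log2 scale, -1.72 for Fgf10, -1.47 for Fgf2, -1.44 for Bmp7, -1.35 for Bmp2, -0.95 for Angpt2, -0.46 for Bmp4 and -0.10 for Fgf1. The first 4 were below 0.5-fold, as were 48.8% of the array genes. These are the samples in which the genes other than Fgf1 lay nearest to the DNA control, which itself came 2.05 cycles later in ND + pool. The medians were -1.35 for the growth factor genes and -0.99 for the array. With the DNA signal subtracted, the values ran from -2.13 for Fgf10 to -0.17 for Fgf1. With Gapdh alone and with the array median 0 of the 7 were below 0.5, and Bmp4 (0.28 and 0.48) and Fgf1 (0.64 and 0.84) were above 0, as was Fgf1 with Gusb alone (0.13).

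In the last comparison, HFD + pool vs. ND + pool, the genes went both ways. Fgf1 (0.71) and Bmp7 (0.65) were above 1.5-fold, where 23.8% of the array genes were, and Fgf10 (-2.61) and Bmp2 (-1.91) were below 0.5, where 34.5% were. Fgf2 (-0.99), Angpt2 (-0.23) and Bmp4 (0.20) lay between. The medians were -0.23 for the 7 genes and -0.22 for the array (log2). With Gusb alone Fgf1 (0.22) and Bmp7 (0.16) were no longer above 1.5, nor with Hsp90ab1 alone (0.04 and -0.025). The median of the 7 was above 0 with Gapdh (0.59), Actb (0.06) and the array median (0.27) as reference, and after DNA subtraction (0.04).

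**Figure D3:**
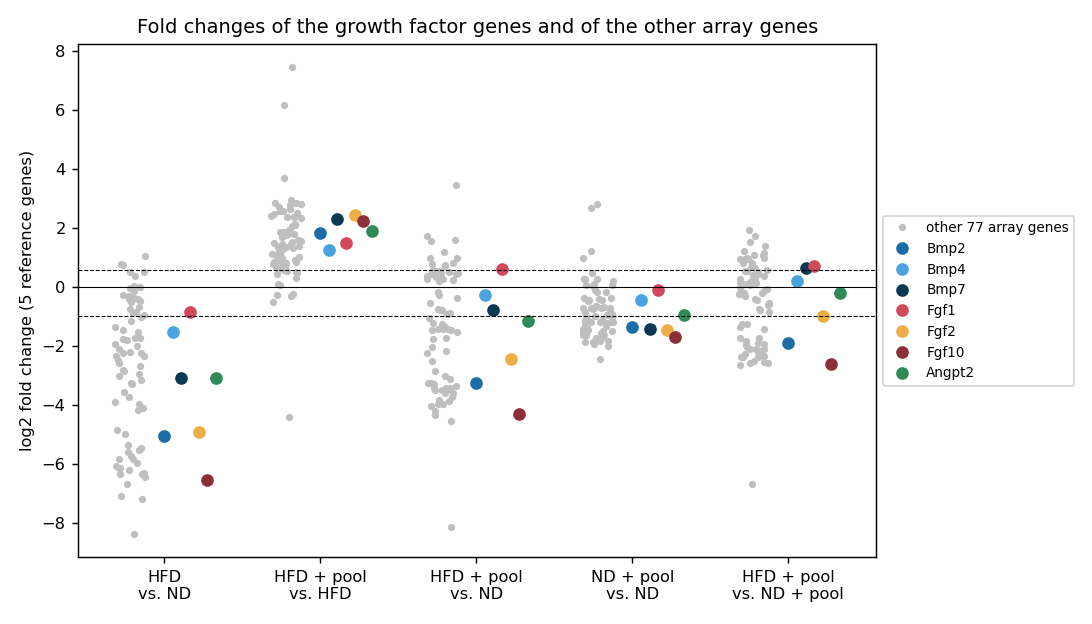
Log2 fold changes (y axis) in the 5 comparisons (x axis) for the 7 growth factor genes in colour and the other 77 array genes in grey, spread sideways for legibility; dashed lines mark 1.5-fold and 0.5-fold. The 7 genes lie within the grey cloud in each comparison, all above the upper line in HFD + pool vs. HFD.

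Against the 5-gene mean, the pool comparisons had opposite signs on ND and on HFD for each of the 7 genes, and for 79.8% of the array genes. With Gusb alone Fgf1 was above 0 on both diets, and with Gapdh alone or the array median both Bmp4 and Fgf1 were, which left 6 and 5 genes with opposite signs. The log2 fold change with the pool was higher on HFD than on ND by 3.95 for Fgf10, 3.92 for Fgf2, 3.73 for Bmp7, 3.17 for Bmp2, 2.86 for Angpt2, 1.72 for Bmp4 and 1.58 for Fgf1. The median of these differences was 3.17, and 2.28 over the array. With 1 sample per group this difference was not tested.

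Setting the genes against Fgf1, the earliest of the 7 in every sample, needs no housekeeping gene. The Ct of Bmp4 exceeded that of Fgf1 by 3.30 in ND, 3.67 in ND + pool, 3.96 in HFD and 4.18 in HFD + pool, so the ratio of these genes moved by 0.877 cycles in all. The Ct of Fgf10 exceeded that of Fgf1 by 4.36, 5.98, 10.1 and 9.31 cycles in the same order of samples, and that of Bmp2 by 4.44, 5.69, 8.66 and 8.32. Relative to Fgf1, the genes were therefore lower in HFD than in ND by 5.70 cycles for Fgf10, 4.21 for Bmp2, 4.06 for Fgf2, 2.22 for Angpt2 and Bmp7, and 0.657 for Bmp4. Between HFD and HFD + pool these ratios changed less, from -0.972 cycles for Fgf2 to 0.22 for Bmp4. The changes of the growth factor genes thus lay closer together from HFD to HFD + pool than from ND to HFD. In ND the genes other than Fgf1 lay only 0.783 to 1.92 cycles before the DNA control, and its part in this contrast was not tested.

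**Figure D4:**
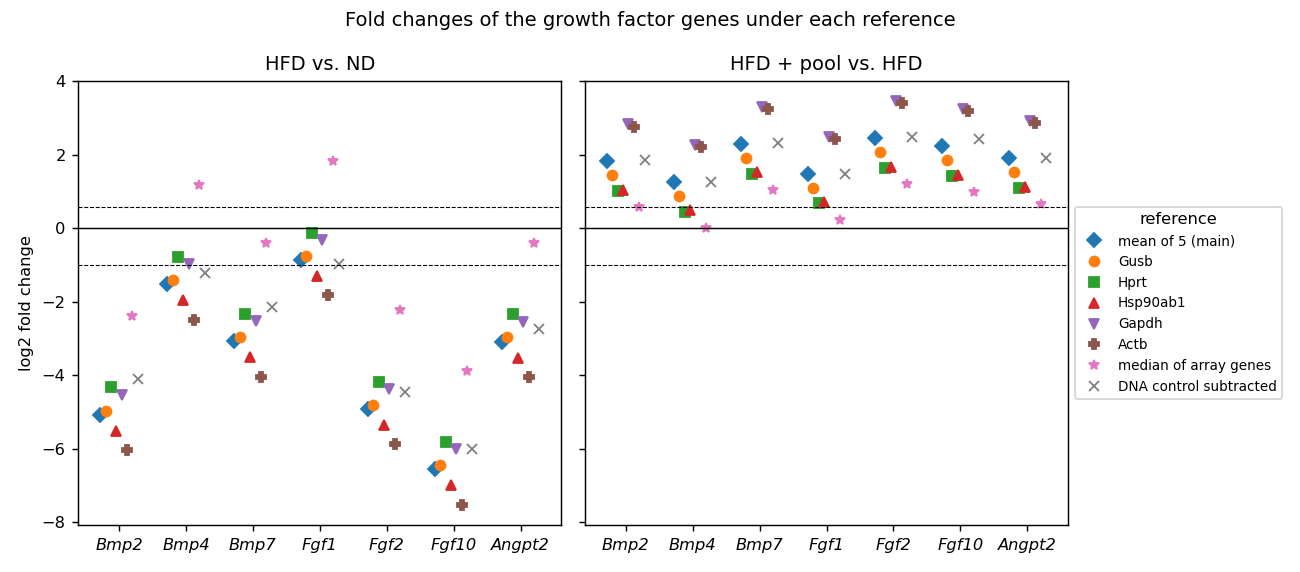
Log2 fold changes (y axis) of the 7 genes (x axis) in HFD vs. ND and in HFD + pool vs. HFD, under the mean of 5 reference genes, each reference gene alone, the median of the array genes and subtraction of the DNA control; dashed lines mark 1.5-fold and 0.5-fold. Bmp4 and Fgf1 change sign in HFD vs. ND with the median of the array genes as reference, where they reach 1.17 and 1.82, and no gene changes sign in HFD + pool vs. HFD.

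The reference genes set the size of each fold change. Over the 4 samples Gapdh ranged over 2.18 cycles, Actb over 1.25, Hprt over 1.07, Gusb over 0.771 and Hsp90ab1 over 0.593. Over 7 references, namely the mean, each gene alone and the median Ct of the array, HFD vs. ND ran from -7.53 to -3.88 for Fgf10, from -6.04 to -2.39 for Bmp2 and from -5.89 to -2.23 for Fgf2. It ran from -4.05 to -0.40 for both Angpt2 and Bmp7, from -2.49 to 1.17 for Bmp4 and from -1.83 to 1.82 for Fgf1. In HFD + pool vs. HFD it stayed above 0 for all 7 genes, from 0.007 at the lowest for Bmp4 to 3.46 at the highest for Fgf2.

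Other signalling genes of the array were counted beside the growth factors. The 10 other secreted ligands and antagonists were Shh, Wnt1, Wnt3a, Wnt5a, Wnt5b, Wnt10b, Dkk1, Sfrp1, Sfrp5 and Dlk1, of the Hedgehog, Wnt and Notch-related families. All 10 were below 0.5 in HFD vs. ND, beside 72.6% of the array, with a median of -5.72 against -2.53 (log2). Their Ct in ND ran from 24.94 for Wnt5b to 26.81 for Dkk1, while the DNA control of that sample had 26.77. That control came 7.88 cycles later in HFD, and its part in this median was not tested. In HFD + pool vs. HFD, 9 of the 10 were above 1.5, beside 84.5% of the array, and Shh, which had no Ct in HFD + pool and was set to 35, was below 0.5, with a median of 2.43. In HFD + pool vs. ND 9 were below 0.5, beside 53.6% of the array, and Wnt5b was above 1.5.

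A list of 14 array genes that act downstream of BMP or FGF receptors, or in the fat programmes they direct, held Mapk14, Src, Jun, Egr2, Ccnd1, Hes1, Cdkn1a, Foxo1, Prdm16, Ppargc1a, Ucp1, Pparg, Runx1t1 and Twist1. In HFD vs. ND 10 of them (71.4%) were below 0.5, a share near the 72.6% of the array, and 0 were above 1.5. The lowest was Prdm16, a brown fat determinant that acts after Bmp7, at -6.16, and the highest Ccnd1, the cyclin induced by growth factors, at 0.01 (log2). The Prdm16 well of ND had a Ct of 27.4, later than the DNA control of that sample at 26.8, so its level there was not above the DNA signal. In HFD its Ct was 33.9, beside 34.7 for the control. In HFD + pool vs. HFD 12 of the 14 (85.7%) were above 1.5, again near the 84.5% of the array, with Jun, an immediate early gene of the MAP kinase cascade, highest at 2.81 and Ccnd1 lowest at -0.27. In HFD + pool vs. ND 6 (42.9%) were below 0.5, beside 53.6% of the array. Pparg, the master regulator of fat cells, was the only 1 above 1.5 (7.14%), beside 14.3% of the array. In ND + pool vs. ND 5 (35.7%) were below 0.5, beside 48.8% of the array, and Egr2 (7.14%) was above 1.5, beside 4.76%.

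For each growth factor gene, the array genes with the most similar pattern were found by the root mean square difference of normalised Ct over the 4 samples, after each gene's own mean was subtracted. Bmp2 lay nearest to Adig (0.134 cycles), Sfrp1 (0.155) and Runx1t1 (0.176), and Fgf10 to Sfrp5 (0.129), Retn (0.199) and Ucp1 (0.218). Angpt2 lay nearest to Rxra (0.0707), Src (0.188) and Lipe (0.212), and Bmp7 to Src (0.240) and Rxra (0.269). Bmp4 lay nearest to Fabp4 (0.187), E2f1 (0.265) and Ppara (0.285), Fgf1 to Nr1h3 (0.143), Ppargc1b (0.192) and Lmna (0.227), and Fgf2 to Gata3 (0.313), Sfrp1 (0.349) and Wnt5a (0.372). Such closeness was common with 4 samples, since between 6 genes (Fgf2) and 25 genes (Bmp4) of the other 77 lay within 0.5 cycles. In ND the neighbours named for Bmp2 and Fgf10 had a Ct from 25.38 (Adig) to 26.32 (Sfrp5), beside 26.77 for the DNA control. Those named for Fgf1 came earlier, from 20.71 (Nr1h3) to 24.84 (Ppargc1b). The part of the DNA signal in these patterns was not tested. Among the 7 genes, Bmp7 and Angpt2 were 0.311 cycles apart, Bmp4 and Fgf1 0.329, and Bmp2 and Fgf2 0.352, while Fgf1 and Fgf10 were farthest apart at 2.34.

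The tissue label was checked with 6 hepatocyte-rich genes of the array, Agt, Nr0b2, Cebpa, Ppara, Nr1h3 and Rxra, and with 6 adipocyte-rich genes, Adipoq, Lep, Retn, Cfd, Adig and Fabp4. All 6 hepatocyte-rich genes had a Ct in every sample, between 20.7 and 24.99 in ND and between 21.8 and 28.2 in HFD. In HFD vs. ND 3 of the 6 were below 0.5, beside 72.6% of the array. The summed log2 level of the 6 was 1.56 in ND, 1.30 in ND + pool, 0.915 in HFD and 1.98 in HFD + pool. Signals were added across genes for such sums, so the earliest gene counted most. Here it was Nr1h3 in every sample, and primer efficiencies are unknown. All 6 adipocyte-rich genes also had a Ct in every sample, and in ND they came 0.506 to 3.84 cycles before the DNA control. Like most of the growth factor genes, all 6 were below 0.5 in HFD vs. ND, beside 72.6% of the array. All 6 were above 1.5 in HFD + pool vs. HFD, beside 84.5% of the array. Their summed log2 level was -0.41 in ND, 0.13 in ND + pool, -2.95 in HFD and 0.66 in HFD + pool. Cfd carried the higher sums of the samples with the pool, at 2.66 in ND + pool vs. ND and 3.47 in HFD + pool vs. ND (log2). However, 4 of the 6 were below 0.5 in each of these comparisons, beside 48.8% and 53.6% of the array. The medians of the 6 were -1.42 and -3.54. No marker of endothelial or stellate cells was among the lists counted, and the part of cell makeup in the growth factor differences was not tested.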

How the data were processed

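Livers of 4 groups of mice, 1 sample per group, were analysed with a 96-well PCR array of 84 genes. The authors deposited a score per well, the raw Ct value of each sample, with no normalization. A second deposited table holds the authors' own fold changes for 4 comparisons, made with the manufacturer's web software, and was not used. The 4 Ct columns were assigned by name, and 0 columns of sample values were left out. A Ct of 35 was entered for wells with none or a later one. Each Ct was then taken relative to the average of the 5 reference genes, and log2 fold changes are the reversed differences between samples, assuming a doubling per cycle. Fold changes above 1.5 or below 0.5 were counted, the limits of the study. The genes named are the 7 growth factors, the reference genes, the control wells, the 3 genes nearest in pattern to each growth factor (1 of them is not reported here), and the extremes or exceptions of 2 gene lists and 2 marker lists. The members and lists were chosen with earlier results of these data known. The 11 alternatives were single references, the array median, other Ct limits, DNA control subtraction and other fold limits. All 84 symbols were found in the RefSeq annotation of GRCm38.p6. The calculation was tested on simulated data of 84 genes, where 20 of 20 changed genes were recovered and 0 unchanged genes called. That run checked the calculation only and gives no rate of false calls for the 4 liver samples. Python 3.11.15, numpy 2.4.6, pandas 2.3.3 and matplotlib 3.10.9 were used. No depth or replicate error exists for a Ct from 1 well.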

Additional observations from a re-analysis of the deposited data

Results flagged for a closer look

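The difference between the log2 fold changes with the pool on HFD and on ND drew attention because, against the mean of the 5 reference genes, the 2 had opposite signs for all 7 growth factor genes: 3.17 for Bmp2, 1.72 for Bmp4, 3.73 for Bmp7, 1.58 for Fgf1, 3.92 for Fgf2, 3.95 for Fgf10 and 2.86 for Angpt2. For Bmp4, Bmp7 and Fgf1 the diet difference also had opposite signs without and with the pool, by the same 1.72, 3.73 and 1.58. These signs depended on the reference, and on the names of the ND and HFD columns as labelled. The pool differences shared a sign for Fgf1 with Gusb alone and for Bmp4 and Fgf1 with Gapdh alone or the array median. The diet differences shared a sign for Bmp4 with Gusb alone, for Bmp4 and Bmp7 with Hsp90ab1 alone, and for Bmp4 and Fgf1 with the array median. With 1 sample per group these differences were not tested. In ND + pool, 2 of the 3 reverse transcription control wells gave a Ct, of 28.64 and 29.431, while these wells gave none in the other 3 samples.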

How the results depend on the processing

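No paired analysis was possible because each group has 1 sample. Of 315 values of single growth factor genes under the alternatives, 255 kept their direction and side of the limits, 25 fell short of a limit they had passed, 12 passed a limit they had not and 23 changed sign, 13 of them past a limit before or after. Without a Ct limit and with a limit of 32 no count of growth factor genes changed. All 7 genes above 1.5 in HFD + pool vs. HFD became 4 with the array median as reference. That reference moved the median of all array genes in HFD vs. ND from -2.53 to 0.158, with 35 array genes above 1.5 and 30 below 0.5 in place of 3 and 61. In HFD vs. ND it gave Bmp4 1.167, Fgf1 1.824 and a median of -0.398, with 2 genes above and 3 below. In HFD + pool vs. ND it gave Bmp4 1.174, Bmp7 0.647, Angpt2 0.261 and a median of 0.261, with 3 above (array 37 above and 29 below, in place of 12 and 45). In ND + pool vs. ND it gave Fgf1 0.8395 and a median of -0.4135, with 1 above and 0 below (array 18 and 3, in place of 4 and 41), and in HFD + pool vs. ND + pool a median of 0.2725. Gapdh alone gave, in HFD + pool vs. ND, Bmp4 1.293, Bmp7 0.766, Angpt2 0.38 and a median of 0.38, with 3 above and 2 below (array 39 and 27). In ND + pool vs. ND it gave Fgf1 0.64 and a median of -0.613, with 1 above and 0 below (array 16 and 9), and in HFD + pool vs. ND + pool Angpt2 0.591 and a median of 0.591, with 4 above (array 44 and 23, in place of 20 and 29). Hsp90ab1 alone gave Fgf1 -0.595 and 0 above in HFD + pool vs. ND, and Bmp7 -0.025 and 0 above in HFD + pool vs. ND + pool. Gusb alone gave 0 above in both of these, Hprt alone 0 above in the first, and limits of 2 and 0.5 gave 0 above in both. Actb alone gave a median of 0.062 in HFD + pool vs. ND + pool. With the DNA control subtracted, the median was -0.826358 and 0 were above in HFD + pool vs. ND, and the median was 0.0373575 in HFD + pool vs. ND + pool (array 29 and 16). Over these alternatives the number of array genes below 0.5 in HFD vs. ND ranged from 30 to 76 and above 1.5 from 0 to 35. The number above 1.5 ranged from 31 to 82 in HFD + pool vs. HFD (71 as reported), from 1 to 39 in HFD + pool vs. ND, from 3 to 18 in ND + pool vs. ND and from 4 to 44 in HFD + pool vs. ND + pool, and the number below 0.5 from 0 to 7, 27 to 57, 3 to 60 and 16 to 38 in the same order. The cause of these changes was not tested. A single well per gene and 1 sample per group limit every value.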
